A study of Mus musculus with 19 samples.

Results

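RNA of PDPN+ cells was compared with RNA of EpCAM+ cells sorted from mouse pancreatic tumours after neratinib. Of the 19 libraries of the series, the 9 from neratinib mice were used: 4 PDPN+ libraries, which the titles mark as cancer-associated fibroblasts (CAFs), and 5 EpCAM+ libraries, marked as epithelial. All 9 come from orthotopic tumours that grew from T-LOH KPC organoids, cultures of mouse pancreatic cancer, in C57BL/6J mice given neratinib for 2 weeks. The labels give no age, sex or dose, and do not spell out T-LOH. Titles hold a 5-digit number and N for neratinib or V for vehicle, joined here. That the number names the animal is inferred, and the p-values rest on it. Mice N53178, N53180, N53184 and N53194 gave both populations and mouse N53193 gave EpCAM+ cells alone. Each population is named here by 1 surface protein, and whether other gates were used was not examined. A PDPN+ sort may therefore hold other cells that carry podoplanin, such as mesothelial and lymphatic endothelial cells.

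CAFs are the stromal cells that surround and embed the tumour glands of pancreatic cancer, where they deposit matrix and release cytokines and growth factors. Myofibroblastic, inflammatory and antigen-presenting CAFs are told apart by contractile and matrix genes, by cytokine genes and by MHC class II genes. Neratinib binds covalently to the kinase domains of EGFR, ERBB2 and ERBB4, which carry signals from ligands such as amphiregulin and HB-EGF to the RAS, RAF, MEK and ERK kinases. ERBB3 lacks strong kinase activity and signals through its partners.

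Reads assigned to genes came to 30.3 to 41.5 M (M, mega) per PDPN+ library and 39.4 to 54.8 M per EpCAM+ library. The mitochondrial share of reads was 12.4 to 19.4% in the PDPN+ and 2.17 to 2.67% in the EpCAM+ group (exact two-sided permutation test, p = 0.0159, the smallest that this design allows). PDPN+ libraries resembled each other less: Pearson's r of log2 CPM (read counts scaled to library size) between 2 libraries was 0.793 to 0.857, against 0.937 to 0.983 between EpCAM+ libraries. Of the 11425 genes that reached 10 CPM in a PDPN+ library, 1126 (9.86%) had 0 reads in another, against 15 of 9611 (0.156%) in EpCAM+ libraries. The library protocol used more PCR cycles for less RNA, and the labels do not give the cycles of each library, so their part in this was not tested. Among EpCAM+ libraries that of mouse N53178 stood apart, with r of 0.937 to 0.953 to the others, which reached 0.970 to 0.983 among themselves.

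The sorted proteins' own genes separated the populations. Values of single libraries are CPM in the order of mice N53178, N53180, N53184 and N53194 for PDPN+ cells, and N53178, N53180, N53184, N53193 and N53194 for EpCAM+ cells. Pdpn (ENSMUSG00000028583), which encodes podoplanin, stood at 374, 447, 403 and 384 CPM in PDPN+ and 1.41, 1.04, 1.44, 0.392 and 2.73 CPM in EpCAM+ libraries (log2 difference 8.16, SE 0.55, adjusted p = 7.83e-06). The 4 PDPN+ values lay close together and far above the highest EpCAM+ value. Epcam (ENSMUSG00000045394), an adhesion molecule of epithelia, stood at 0, 0.0292, 0.0808 and 0.213 CPM in PDPN+ and 617, 196, 115, 184 and 183 CPM in EpCAM+ libraries (log2 difference -11.57, SE 1.02, adjusted p = 3.51e-05). Mouse N53178 had the highest EpCAM+ value, and the PDPN+ values lay near the level of 3 reads, 0.110 CPM in the shallowest PDPN+ library. In bulk RNA of this kind, fewer cells of a type and less RNA per cell cannot be told apart.

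Zeb1 and Zeb2, which encode zinc-finger repressors that bind the E-box CACCTG, were among the genes higher in PDPN+ cells (their values are given with the transcription factors), and epithelial genes were lower. The promoters of the genes that define the 2 populations are therefore shown, with each CACCTG and its reverse complement CAGGTG in capitals. The windows span 250 bases before to 50 bases after a RefSeq gene start and are given 5′ to 3′ on the gene's strand, from GRCm38.p6, another build than that of the deposited values. Epcam lies on chromosome 17, plus strand (chr17:87635729-87636028), Cldn4 on chromosome 5, minus strand (chr5:134946885-134947184), Muc1 on chromosome 3, plus strand (chr3:89228806-89229105), and Pdpn on chromosome 4, minus strand (chr4:143299515-143299814).
Epcam: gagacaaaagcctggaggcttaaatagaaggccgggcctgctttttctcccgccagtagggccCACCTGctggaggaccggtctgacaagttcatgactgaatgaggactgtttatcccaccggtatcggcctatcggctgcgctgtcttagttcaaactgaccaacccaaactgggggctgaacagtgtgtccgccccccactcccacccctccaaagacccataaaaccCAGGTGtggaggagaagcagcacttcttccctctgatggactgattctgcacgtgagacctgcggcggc
Cldn4: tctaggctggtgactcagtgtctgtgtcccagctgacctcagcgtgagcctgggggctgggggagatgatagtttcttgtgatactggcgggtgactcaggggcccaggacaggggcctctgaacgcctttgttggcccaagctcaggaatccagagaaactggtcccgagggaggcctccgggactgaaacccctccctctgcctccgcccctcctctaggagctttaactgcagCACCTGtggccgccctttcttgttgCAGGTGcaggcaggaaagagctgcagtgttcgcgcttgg
Muc1: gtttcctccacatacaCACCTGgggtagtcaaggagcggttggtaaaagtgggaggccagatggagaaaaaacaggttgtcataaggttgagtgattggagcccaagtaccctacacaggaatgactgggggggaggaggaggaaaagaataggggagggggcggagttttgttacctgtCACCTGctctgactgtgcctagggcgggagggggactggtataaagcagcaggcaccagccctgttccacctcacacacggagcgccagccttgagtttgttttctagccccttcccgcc
Pdpn: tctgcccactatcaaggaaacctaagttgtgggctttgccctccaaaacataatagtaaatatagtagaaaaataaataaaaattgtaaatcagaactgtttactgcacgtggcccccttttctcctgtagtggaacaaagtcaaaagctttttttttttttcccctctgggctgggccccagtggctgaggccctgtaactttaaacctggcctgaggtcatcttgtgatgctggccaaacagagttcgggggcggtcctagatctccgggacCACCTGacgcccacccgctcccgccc
The Epcam, Cldn4 and Muc1 windows each hold 2 matches and the Pdpn window 1. Of the 18 epithelial identity genes, 12 have a window in the table, and 11 of these hold at least 1 match: Epcam, Krt7, Krt8, Krt18, Cldn3, Cldn4, Cldn7, Ocln, Elf3, Prom1 and Muc1, but not Spint1. Over the 27025 genes of the table, 22.6% hold at least 1 match in a window. Of the 12 fibroblast identity genes 5 have a window, and 2 of these, Pdpn and Dpt, hold a match. A match describes these letters and is no evidence of binding.

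**Figure D1:**
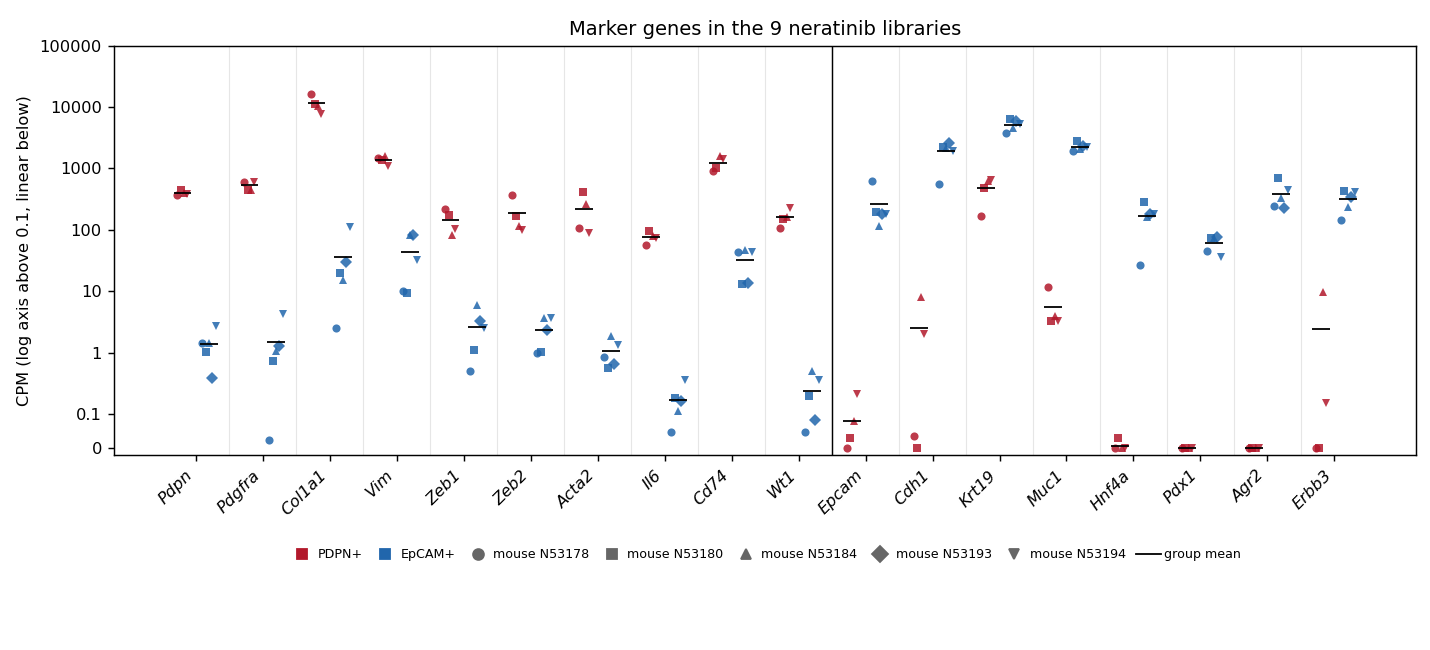
CPM of 18 genes in the 9 neratinib libraries, on an axis that is logarithmic above 0.1 and linear below. Points are libraries, shaped by mouse (red, PDPN+; blue, EpCAM+), and lines are group means; in none of these genes do the groups overlap, and Krt19 is the gene on the right with the highest PDPN+ values, 165 to 644 CPM.

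Across all genes, 5838 of 16858 (34.6%) differed between the populations at a Benjamini-Hochberg adjusted p under 0.05 in edgeR's quasi-likelihood test, 2822 higher (16.7%) and 3016 lower (17.9%) in PDPN+ cells. The median log2 difference (PDPN+ minus EpCAM+) over all genes was -0.10. All PDPN+ libraries lay above all EpCAM+ libraries in 14.9% of genes and below them in 22.1%. A fit that blocks on the mouse, over the 4 animals sampled for both, passed 2353 of 16350 genes (14.4%), all but 20 of them also without the block, and the 2333 shared genes had the same direction. Without the EpCAM+ library of mouse N53178 the count was 5161, and without any other single EpCAM+ library it was lower, 4402 to 4551. By limma voom 39.0% of the calls were higher in PDPN+ cells and by limma on log2(TPM + 1) 24.1%, against 48.3% here, and the median over all genes was -0.63 and -0.78. The TPM were used as deposited, without further scaling between libraries, so counts from that fit carry this shift. The part of the mitochondrial share in it was not tested. The list counts that follow are to be read against the 16.7% and 17.9% over all genes. List counts from another setting are to be read against that setting's own totals. Over all genes there were 1231 higher and 1122 lower of 16350 with mouse as a block. The totals were 1727 and 5446 of 13702 by limma on log2(TPM + 1), 2279 and 3565 of 16858 by limma voom, and 4426 and 5062 of 24073 by DESeq2.

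Epithelial identity genes were lower in PDPN+ cells. Of 18 tested there were 0 higher, 17 lower and 1 not passing (34.6% of all genes passed in either direction), with a median log2 difference of -7.23. Cdh1, which encodes the junction protein E-cadherin, stood at 0.0366, 0, 7.92 and 2.03 CPM in PDPN+ and 565, 2213, 2176, 2632 and 1927 CPM in EpCAM+ libraries (log2 difference -9.56, SE 1.73, adjusted p = 0.00181). The groups did not overlap, and the highest PDPN+ value was that of mouse N53184. Muc1, a membrane mucin gene, stood at 11.5, 3.33, 3.93 and 3.28 CPM in PDPN+ and 1881, 2797, 2081, 2303 and 2193 CPM in EpCAM+ libraries (log2 difference -8.68, SE 0.54, adjusted p = 5.73e-06). Prom1, which encodes the membrane protein prominin, stood at 2.23, 2.60, 2.18 and 1.97 CPM in PDPN+ and 2880.2, 2188, 1998, 3838 and 1768 CPM in EpCAM+ libraries (log2 difference -10.14, SE 0.36, adjusted p = 8.69e-07), with PDPN+ values that hardly differed between mice. The exception was Spint1, a protease inhibitor gene, at 0, 0, 0 and 7.35 CPM in PDPN+ and 111, 39.2, 58.6, 30.2 and 18.2 CPM in EpCAM+ libraries (adjusted p = 0.0822). Esrp1, a splicing regulator of epithelial transcripts, had a log2 difference of -12.52 and the transcription factor gene Grhl2 of -9.84. The keratin genes Krt8, Krt18 and Krt19 were lower by less, with log2 differences of -3.52, -4.43 and -3.43. Krt19 stood at 165, 486, 623 and 644 CPM in PDPN+ libraries, lowest in mouse N53178, and at 3819, 6252, 4559, 5999 and 5175 in EpCAM+ libraries. The summed level of the list was 457 to 1885 CPM in PDPN+ and 26399 to 34159 CPM in EpCAM+ libraries. The part of this level in the PDPN+ values of other tumour genes was not tested.

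Endodermal transcription factor genes, which set pancreatic and gastric identity, split into 12 lower and 2 higher in PDPN+ cells among 17 tested, with 3 not passing (median log2 difference -7.45, and -6.01 with genes at 0 in a whole group set at their bound). Hnf4a, a master regulator of gastrointestinal epithelium, stood at 0, 0.0292, 0 and 0 CPM in PDPN+ and 26.6, 278, 159, 183 and 182 CPM in EpCAM+ libraries (log2 difference -13.95, SE 1.10, adjusted p = 1.88e-05). The EpCAM+ value of mouse N53178 was the lowest of its group and still far above every PDPN+ value. Pdx1, which specifies the pancreas, had 0 reads in all 4 PDPN+ libraries and 44.6, 74.1, 73.4, 76.8 and 36.0 CPM in EpCAM+ libraries. Set against 3 reads in the shallowest PDPN+ library, it was at least 556-fold higher in EpCAM+ cells. All such bounds in the text are made in this way, with the shallowest EpCAM+ library for genes at 0 in EpCAM+ cells. They cover counting error only, not the uneven detection in PDPN+ libraries. Klf5 (-3.61), Ehf (-7.07), Onecut2 (-7.45) and Foxa1 (at least 64.7-fold lower, and adjusted p = 0.0537 with mouse as a block) were also lower. Gata6, a factor of classical pancreatic cancer, went the other way, at 79.9, 74.6, 111 and 32.4 CPM in PDPN+ and 1.04, 8.42, 7.13, 5.16 and 2.41 CPM in EpCAM+ libraries (log2 difference 3.95, SE 0.65, adjusted p = 0.00102). No PDPN+ library overlapped with an EpCAM+ library for Gata6. Creb3l1, which promotes secretory capacity and collagen export, was higher as well (2.28, and adjusted p = 0.0736 with mouse as a block).

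Genes of the classical subtype and of gastric mucus cells gave the largest differences. All 15 tested were lower in PDPN+ cells (median -13.37, and -10.47 with genes at 0 in a whole group set at their bound), and 9 of the 17 members found, tested or not, had 0 reads in every PDPN+ library. Agr2, a disulfide isomerase of mucin-producing cells, had 0 reads in the 4 PDPN+ libraries and 241, 701, 325, 229 and 441 CPM in EpCAM+ libraries, at least 3529-fold higher. Tff2, a gastric trefoil peptide gene, also had 0 reads in PDPN+ cells and 267, 365, 160.2, 173 and 159.5 CPM in EpCAM+ cells, at least 2051-fold higher. Ctse, a gastric protease gene, had a log2 difference of -14.18, Tff1 of -12.47 and Lgals4, a galectin gene, of -6.13. Outside the lists, the largest differences of this direction also came from genes with 0 reads in the 4 PDPN+ libraries. They were the gap junction gene Gjb1 (at least 2088-fold), the proton channel gene Otop3 (at least 1969-fold), the kinase gene Ripk4 (1900-fold), the raft protein gene Mall (1859-fold), the sphingolipid enzyme gene Sptssb (1921-fold) and the glutathione transferase gene Gsta1 (1953-fold). Gsta1 varied between EpCAM+ libraries from 33.7 to 661 CPM, while Mall kept to 175 to 233 CPM.

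Basal-like subtype genes gave 1 higher, 5 lower and 3 not passing among 9 tested. Ly6d (-7.74), S100a14 (-11.31), Lamb3 (-8.48), Krt17 (-4.99, and adjusted p = 0.0697 with mouse as a block, and adjusted p = 0.165 by limma voom) and Dsg3 (at least 29.6-fold lower, and adjusted p = 0.0632 with mouse as a block) were lower. Fscn1, which encodes the actin bundler fascin, was the higher one, at 88.7, 86.8, 110.2 and 209.6 CPM in PDPN+ and 1.37, 1.76, 9.37, 2.19 and 2.09 CPM in EpCAM+ libraries (log2 difference 5.20, SE 0.69, adjusted p = 3.82e-04).

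Among genes lower in PDPN+ cells the most abundant in EpCAM+ cells per length were Clu, Spp1, Krt18, Krt19, Dmbt1, Krt8, Lgals4 and Bsg. Clu, which encodes the secreted chaperone clusterin, stood at 26169 ± 4605 TPM (abundance corrected for length and scaled to the library, mean ± SD, n = 5) in EpCAM+ cells and 1113 ± 549 (n = 4) in PDPN+ cells (log2 difference -4.00, SE 0.39, adjusted p = 6.83e-05). Dmbt1, a secreted scavenger receptor gene of ducts, stood at 5665 ± 1676 and 1.23 ± 2.09 TPM (log2 difference -12.55, SE 1.66, adjusted p = 3.95e-04). Spp1, which encodes osteopontin, stood at 7250.2 ± 4658 and 641 ± 646 TPM (log2 difference -2.79, SE 0.83, adjusted p = 0.0246, and adjusted p = 0.0526 to 0.0578 without library EpCAM+ N53184 or N53193 or PDPN+ N53178 or N53180, and adjusted p = 0.223 by limma voom), and its PDPN+ value in mouse N53184 passed the lowest EpCAM+ value on the CPM scale.

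Fibroblast identity genes were higher in PDPN+ cells in 11 of 12 cases, with 1 not passing (median log2 difference 8.37). Pdgfra, the receptor gene that marks fibroblasts, stood at 606, 450.4, 453 and 599 CPM in PDPN+ and 0.0232, 0.718, 1.04, 1.28 and 4.32 CPM in EpCAM+ libraries (log2 difference 8.47, SE 1.06, adjusted p = 2.83e-04). Dcn, which encodes the proteoglycan decorin, stood at 3840.0, 4662, 4401 and 5924 CPM in PDPN+ and 23.4, 9.01, 6.98, 2.83 and 34.1 CPM in EpCAM+ libraries (log2 difference 8.27, SE 0.78, adjusted p = 5.08e-05). For both, every PDPN+ library lay far above every EpCAM+ library. Mfap5 (10.07), Lum (9.77) and the intermediate filament gene Vim (5.01) were higher too. Fn1, which encodes fibronectin, did not pass, at 2213, 2161, 1735 and 1277 CPM in PDPN+ and 228, 293, 602, 751 and 2285 CPM in EpCAM+ libraries (adjusted p = 0.175). The EpCAM+ library of mouse N53194 lay above all PDPN+ libraries and the other 4 below them.

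The genes outside the lists with the largest differences in this direction had few or no reads in EpCAM+ cells. Ptx3, which encodes a secreted pentraxin, had 0 reads in EpCAM+ libraries and 145, 15.8, 17.7 and 15.0 CPM in PDPN+ libraries (at least 694-fold higher). Fbn2, a microfibril gene, stood at 231, 243, 111 and 64.5 CPM in PDPN+ and 0, 0, 0, 0.0620 and 0.102 CPM in EpCAM+ libraries (log2 difference 12.11, SE 1.07, adjusted p = 3.51e-05). Bcat1, an amino acid transaminase gene (13.02), and the chemokine gene Ccl19 (12.11) were both highest in mouse N53180 and lowest in mouse N53194. Olfml1 (at least 226-fold higher), the stomach mesenchyme factor gene Barx1 (at least 201-fold higher) and the unnamed genes Gm17081 (at least 1388-fold higher) and Gm13166 (at least 216-fold higher) completed them.

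Mesenchymal transcription factor genes gave 10 higher, 0 lower and 2 not passing among 12 tested (median 5.22). Under the mouse block the counts were 6 higher and 0 lower. Zeb1 stood at 215, 173, 81.4 and 102 CPM in PDPN+ and 0.510, 1.11, 5.92, 3.26 and 2.49 CPM in EpCAM+ libraries (log2 difference 5.74, SE 0.73, adjusted p = 3.00e-04). Zeb2 stood at 368, 171, 117 and 100.2 CPM in PDPN+ and 0.974, 1.04, 3.68, 2.33 and 3.60 CPM in EpCAM+ libraries (log2 difference 6.34, SE 0.63, adjusted p = 7.44e-05). Mouse N53178 had the highest PDPN+ value of both genes, and no EpCAM+ library came near a PDPN+ library. Osr1 and Prrx1, factors of connective tissue fibroblasts, had log2 differences of 8.54 and 10.60, and Twist1 of 10.47. The Snail family genes were higher too. Snai1 stood at 16.9, 43.1, 11.7 and 19.2 CPM in PDPN+ cells (log2 difference 3.27, and adjusted p = 0.0617 with mouse as a block), and Snai2 at 9.44, 17.2, 15.4 and 0.759 (log2 difference 5.60, and adjusted p = 0.101 with mouse as a block).

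**Figure D2:**
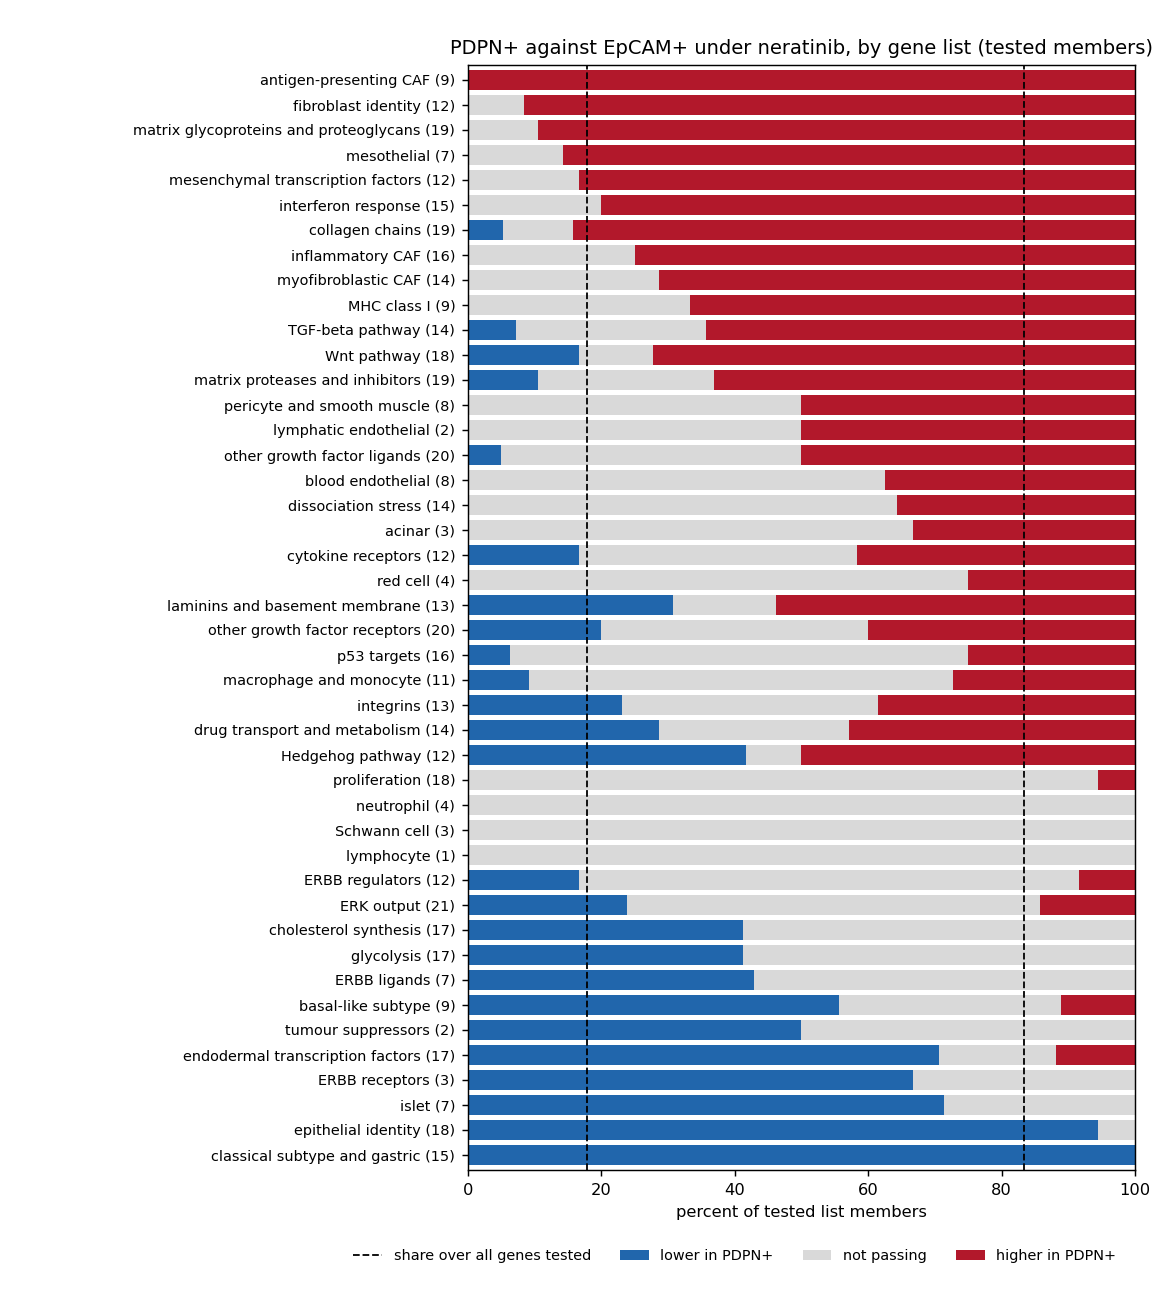
Share of the tested members of each gene list that were higher (red), lower (blue) or not passing (grey) in PDPN+ against EpCAM+ cells, with the number tested in brackets. Dashed lines mark the 17.9% lower and 16.7% higher over all genes; antigen-presenting CAF genes are all red and classical subtype genes all blue.

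Collagen chain genes were mostly higher in PDPN+ cells. Of 19 tested collagen chain genes, 16 were higher, 1 lower and 2 did not pass (median 4.41). Col1a1 stood at 16215, 11355, 10188 and 7807 CPM in PDPN+ and 2.53, 19.8, 15.4, 29.6 and 109.6 CPM in EpCAM+ libraries (log2 difference 8.33, SE 1.03, adjusted p = 2.66e-04), and the EpCAM+ value of mouse N53194 was the highest of its group. Per length Col3a1 stood at 2223 ± 228 TPM and Col1a1 at 2117 ± 530.4 TPM in PDPN+ cells, beyond Col1a2 at 1308 ± 152 TPM, and the means of the first 2 lay within 1 SD of each other. Fibril-associated chains such as Col12a1 (7.98) and microfibrillar Col6a1 (4.32) and Col6a2 (4.86) were higher as well. Col18a1, the basement membrane chain that yields endostatin, was the lower one, at 94.4, 74.1, 112 and 78.6 CPM in PDPN+ and 38.1, 669, 717, 902 and 673 CPM in EpCAM+ libraries (log2 difference -2.74, SE 0.69, adjusted p = 0.0115, and adjusted p = 0.144 with mouse as a block, and adjusted p = 0.230 by limma voom). The EpCAM+ library of mouse N53178 lay below every PDPN+ library for Col18a1 and the other 4 lay above.

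Laminin and basement membrane genes split by chain. Of 13 tested, there were 7 higher, 4 lower and 2 not passing. Higher in PDPN+ cells were Lama4 (7.79), Lama2 (7.51), Lama1 (8.83), Lamc1 (1.58), the linkers Nid1 (3.52) and Nid2 (3.92, and adjusted p = 0.0512 to 0.0536 without library EpCAM+ N53180 or N53194), and Hspg2, which encodes perlecan (3.33). Lama3 and Lamb3, laminin chains of epithelia, were lower with Lama5 (-3.24, and adjusted p = 0.0759 by limma voom) and Agrn (-2.19). Lamb3 stood at 0, 0, 3.64 and 0.0607 CPM in PDPN+ and 69.8, 347, 336, 354 and 571 CPM in EpCAM+ libraries (log2 difference -8.48, SE 1.78, adjusted p = 0.00426). Lama3 stood at 0, 31.2, 23.6 and 0.273 CPM in PDPN+ and 219, 229, 276, 251 and 843 CPM in EpCAM+ libraries (log2 difference -4.72, and adjusted p = 0.102 with mouse as a block, and adjusted p = 0.0583 to 0.0827 without library EpCAM+ N53178, N53180, N53184, N53193 or N53194 or PDPN+ N53184, and adjusted p = 0.106 by limma voom). The PDPN+ values of Lama3 were higher in mice N53180 and N53184 than in mice N53178 and N53194, those of Lamb3 were highest in mouse N53184, and no PDPN+ library reached an EpCAM+ library for either gene. Among integrins, the receptors of these proteins, Itgb4, which pairs at hemidesmosomes, stood at 1.10, 4.64, 4.64 and 28.4 CPM in PDPN+ and 40.5, 185, 155, 177 and 154 CPM in EpCAM+ libraries (log2 difference -3.87, SE 0.92, adjusted p = 0.00842). Itgb6 (-7.75) and Itga2 (-3.76, and adjusted p = 0.106 with mouse as a block, and adjusted p = 0.0508 to 0.0571 without library EpCAM+ N53178, N53184 or N53193 or PDPN+ N53184 or N53194) were also lower. Itga11, a collagen receptor of fibroblasts (9.89), Itgb5 (2.79), Itga5 (3.13, and adjusted p = 0.0841 with mouse as a block), Itgav (1.23, and adjusted p = 0.0541 with mouse as a block) and Itgb8 (4.96, and adjusted p = 0.203 with mouse as a block, and adjusted p = 0.0721 by limma voom) were higher, and 5 of 13 did not pass. Under the mouse block 2 higher and 2 lower passed, and there were 4 higher and 6 lower by limma on log2(TPM + 1).

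**Figure D3:**
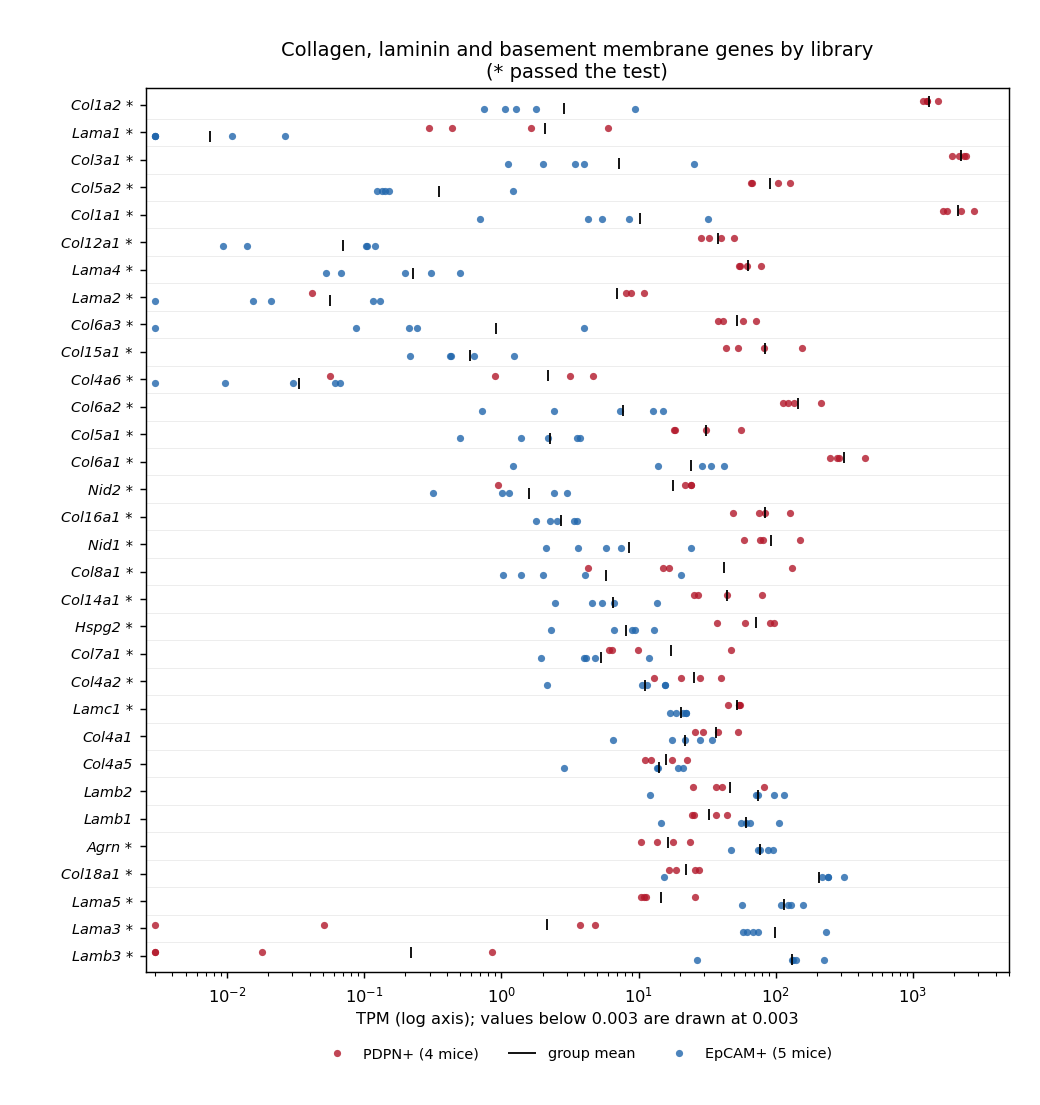
TPM of 32 tested collagen, laminin and basement membrane genes in each neratinib library (red, PDPN+; blue, EpCAM+; black ticks, group means), ordered by log2 difference on a logarithmic axis. Stars mark genes that passed; Lamb3 and Lama3 lie at the bottom, with EpCAM+ values to the right of all PDPN+ values.

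Matrix glycoproteins and proteoglycans were higher in 17 of 19 cases, with 2 not passing (median 8.24). Sparc, a collagen-binding glycoprotein gene, stood at 4622 ± 439 TPM in PDPN+ and 10.3 ± 7.64 TPM in EpCAM+ cells (log2 difference 9.50, SE 0.56, adjusted p = 4.33e-06), and Serpinh1, the collagen chaperone gene, at 3018 ± 432 and 67.4 ± 21.7 TPM (log2 difference 6.09, SE 0.28, adjusted p = 2.15e-06). Bgn (9.20), Fstl1 (8.90) and Pcolce (3.67), a procollagen processing enhancer, were higher as well. Of 19 matrix proteases and inhibitors, 12 were higher, 2 lower and 5 did not pass. The higher ones included Timp1 (7.09), Timp3 (5.53), Mmp2 (9.28) and Mmp3 (9.72). Mmp7, matrilysin, a metalloproteinase of epithelial origin, had 0 reads in the PDPN+ libraries and 117, 18.5, 69.1, 15.0 and 31.5 CPM in EpCAM+ libraries, at least 458-fold higher. Mmp15, a membrane-type metalloproteinase gene, was the other lower one (-8.68).

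Most genes of each of the 3 CAF programmes were higher in PDPN+ cells. Among 14 tested genes of the myofibroblastic list there were 10 higher and 4 not passing (median 4.71). Acta2, which encodes smooth muscle actin, stood at 108, 408, 265 and 88.6 CPM in PDPN+ and 0.858, 0.557, 1.90, 0.661 and 1.34 CPM in EpCAM+ libraries (log2 difference 7.67, SE 0.66, adjusted p = 3.04e-05). Mouse N53180 had the highest and mouse N53194 the lowest PDPN+ value, and Myl9, a myosin light chain gene, had the same order, at 55.2, 134, 80.9 and 26.3 CPM (log2 difference 7.62). Tagln (6.68), Cthrc1 (5.83), Tpm1 (0.64, and adjusted p = 0.107 with mouse as a block, and adjusted p = 0.0835 by limma on log2(TPM + 1)) and Tpm2 (1.99) were higher too. Among 16 genes of the inflammatory CAF list there were 12 higher and 4 not passing (median 7.36). Il6, the interleukin-6 gene, stood at 57.5, 96.4, 79.9 and 74.5 CPM in PDPN+ and 0.0464, 0.180, 0.114, 0.165 and 0.356 CPM in EpCAM+ libraries (log2 difference 8.77, SE 0.62, adjusted p = 1.01e-05). Cxcl1, a neutrophil chemokine gene, stood at 569.9, 357, 564 and 678 CPM in PDPN+ and 2.83, 2.15, 3.19, 0.661 and 2.05 CPM in EpCAM+ libraries (log2 difference 7.96, SE 0.50, adjusted p = 5.85e-06). For both, the PDPN+ values varied little between mice. The complement gene C3 (7.63), the chemokine genes Ccl2 (8.20) and Ccl7 (8.42) and Pi16, a gene of adventitial fibroblasts (8.99), followed.

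The 9 antigen-presenting CAF genes were all higher (median 5.37), and 6 of them with mouse as a block. Cd74, the invariant chain of MHC class II, stood at 890.4, 1027, 1565 and 1445 CPM in PDPN+ and 43.9, 13.1, 47.0, 13.8 and 42.9 CPM in EpCAM+ libraries (log2 difference 5.26, SE 0.49, adjusted p = 4.64e-05). Slpi, a secreted protease inhibitor gene, stood at 434, 2593, 2883 and 2557 CPM in PDPN+ and 7.58, 6.81, 5.58, 2.13 and 8.46 CPM in EpCAM+ libraries (log2 difference 8.44, SE 0.69, adjusted p = 2.36e-05). Mouse N53178 was the lowest of the PDPN+ libraries for both. Saa3, an acute-phase gene, stood at 9958 ± 6468 TPM in PDPN+ cells (log2 difference 9.47), and H2-Ab1 and H2-Aa, the chains of a class II molecule, had log2 differences of 5.37 and 5.67. Mesothelial genes, which mark the lining of the abdominal cavity, were higher in 6 of 7 tested cases. Wt1 stood at 109, 149, 164 and 225 CPM in PDPN+ and 0.0464, 0.198, 0.493, 0.0826 and 0.356 CPM in EpCAM+ libraries (log2 difference 9.39, SE 0.73, adjusted p = 1.74e-05), and Upk3b at 364, 708, 347 and 926 CPM in PDPN+ and 2.55, 3.75, 3.89, 1.88 and 3.80 CPM in EpCAM+ libraries (log2 difference 7.53, SE 0.44, adjusted p = 4.33e-06). The exception was Msln, which encodes mesothelin, at 307, 599, 658 and 585 CPM in PDPN+ and 713, 803, 989, 976 and 698 CPM in EpCAM+ libraries (adjusted p = 0.0638). The summed mesothelial level was 1048 to 3248 CPM in PDPN+ and 715 to 997 CPM in EpCAM+ libraries, and its part in the higher antigen-presenting and keratin values of PDPN+ cells was not tested.

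Markers of other cells differed between lists and between PDPN+ libraries. Of 8 tested pericyte and smooth muscle genes 4 were higher, among them Des (8.34) and Kcnj8 (8.17), and 2 with mouse as a block or by limma on log2(TPM + 1). Des stood at 79.3, 30.9, 111 and 40.3, Kcnj8 at 56.7, 43.0, 27.1 and 29.8 and the endothelial gene Esam at 57.1, 98.5, 65.9 and 74.9 CPM in PDPN+ libraries, present in all 4. The pericyte gene Rgs5 stood at 0.0241, 47.1, 0.00586 and 0.0168 TPM in PDPN+ and 0.418 to 13.4 TPM in EpCAM+ libraries, and was high in PDPN+ cells of mouse N53180 alone. Notch3, also expressed by pericytes, stood at 1.10, 0.00823, 0.0922 and 0 TPM in PDPN+ and 0.138 to 0.693 TPM in EpCAM+ libraries. Of 8 blood endothelial genes 3 were higher, Esam (4.95), Kdr (7.05) and Plvap (5.62, and adjusted p = 0.349 with mouse as a block, and adjusted p = 0.0510 to 0.0547 without library EpCAM+ N53184 or N53193, and adjusted p = 0.212 by limma voom), while Cdh5 and Emcn, which define endothelium, had 0 reads in 2 and in 4 PDPN+ libraries. Of the 6 lymphatic endothelial genes 2 were tested and Flt4 was higher (6.76). Prox1, the defining factor of lymphatic endothelium, stood at 33.2, 0, 0 and 0.668 CPM in PDPN+ libraries, and the chemokine gene Ccl21a at 713, 0, 59.3 and 0 CPM, both highest in mouse N53178. Of 11 macrophage and monocyte genes 3 were higher, Csf1r (3.04, and adjusted p = 0.123 with mouse as a block, and adjusted p = 0.0752 by limma on log2(TPM + 1)), Fcgr3 (3.40, and adjusted p = 0.136 with mouse as a block) and C1qa (3.06, and adjusted p = 0.212 with mouse as a block, and adjusted p = 0.0528 to 0.0838 without library EpCAM+ N53178 or N53193 or PDPN+ N53178 or N53180, and adjusted p = 0.0704 with all 19 libraries in 1 fit, and 0.113 by limma voom, and 0.0545 with no low-count filter), and Adgre1 was lower (at least 6.17-fold lower, and not tested with mouse as a block). Of the 11, 0 passed under the mouse block, and there were 2 higher and 0 lower without EpCAM+ N53178 or N53193 and 3 higher and 3 lower without PDPN+ N53184. The summed level of the macrophage list was 109.9 to 864 CPM in PDPN+ and 48.1 to 98.8 CPM in EpCAM+ libraries. Without the PDPN+ library of mouse N53184, 7 of the 9 antigen-presenting CAF genes were higher. The count was also 7 without EpCAM+ N53178, N53180, N53184 or N53193. These settings are unlike: 6537 of all genes passed without PDPN+ N53184, and 4402 to 5161 without one of these EpCAM+ libraries. The part of macrophage RNA in the antigen-presenting values was not tested. Lyz2, the lysozyme gene of myeloid cells, stood at 19.5, 12.0, 410.0 and 22.5 CPM in PDPN+ libraries, high in mouse N53184 alone. The leukocyte gene Ptprc was also detected there only, at 0, 0, 14.2 and 0 CPM. Neutrophil and lymphocyte genes had 0 passing of 4 and of 1 tested, acinar genes 1 of 3 (Rbpjl, 4.05, and adjusted p = 0.0734 with mouse as a block), Schwann cell genes 0 of 3 and red cell genes 1 of 4 (Alas2, 5.81, and adjusted p = 0.634 with mouse as a block, and adjusted p = 0.0611 to 0.104 without library EpCAM+ N53184, N53193 or N53194 or PDPN+ N53184, and adjusted p = 0.106 by limma voom). Over the alternatives the numbers that passed were 0 to 4 lymphatic, 0 to 1 neutrophil, 0 to 1 lymphocyte, 0 to 3 acinar, 0 to 1 Schwann cell and 0 to 1 red cell genes. Of 7 islet genes 5 were lower, among them Chga (-9.77) and Ins2 (-4.58, and adjusted p = 0.228 by limma voom), and there were 0 higher and 2 lower by limma voom and 0 higher and 3 lower without EpCAM+ N53178, N53180, N53184 or N53193. Ins2, the insulin gene, stood at 225, 57.2, 78.7, 14.7 and 27.4 CPM in EpCAM+ libraries and 4.06, 6.39, 2.99 and 0.0607 in PDPN+ libraries.

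Of the kinases that neratinib binds, the Egfr gene did not pass, Erbb2 was lower in PDPN+ cells and Erbb4 was near 0 reads in both populations. Egfr stood at 41.2, 278, 105 and 121 CPM in PDPN+ and 55.4, 84.5, 55.9, 60.1 and 83.1 CPM in EpCAM+ libraries, and the difference did not pass (log2 difference 1.01, SE 0.46, adjusted p = 0.118). The PDPN+ value of mouse N53180 was above, and that of mouse N53178 below, all EpCAM+ values. Erbb2 stood at 11.6, 20.0, 17.0 and 6.38 CPM in PDPN+ and 25.4, 84.3, 58.5, 79.8 and 66.5 CPM in EpCAM+ libraries (log2 difference -2.19, SE 0.47, adjusted p = 0.00467, and adjusted p = 0.0583 with mouse as a block, and adjusted p = 0.0632 with all 19 libraries in 1 fit, and 0.0653 by limma voom). No PDPN+ library reached the lowest EpCAM+ library, that of mouse N53178. Erbb3 stood at 0, 0, 9.70 and 0.152 CPM in PDPN+ and 145, 431, 237, 346 and 414 CPM in EpCAM+ libraries (log2 difference -6.99, SE 1.83, adjusted p = 0.0138), with reads in PDPN+ cells almost only in mouse N53184. Erbb4 had 0 reads in PDPN+ libraries and 0, 0.0180, 0.0190, 0.0413 and 0 CPM in EpCAM+ libraries, all under 3 reads at the shallowest EpCAM+ depth (0.0696 CPM), and was not tested. With mouse as a block Erbb3 alone of the 3 tested receptors passed. The counts over the receptors were 0 higher and 1 lower with all 19 libraries in 1 fit or by limma voom. Per length, the order in EpCAM+ cells was Erbb3 (79.7 ± 31.4 TPM), Egfr (22.8 ± 6.08) and Erbb2 (20.3 ± 7.76), of which the last 2 did not differ beyond their spread. In PDPN+ cells it was Egfr (29.1 ± 28.1 TPM), Erbb2 (2.85 ± 1.25) and Erbb3 (0.369 ± 0.718).

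Of 7 tested ERBB ligand genes 3 were lower in PDPN+ cells and 0 higher (0 higher and 6 lower by DESeq2 and 0 higher and 5 lower by limma voom). Areg, which encodes amphiregulin, had 0 reads in PDPN+ libraries and stood at 17.7, 16.4, 7.49, 11.9 and 8.21 CPM in EpCAM+ libraries (at least 112-fold lower, adjusted p = 2.67e-04). Hbegf stood at 63.4, 158, 182 and 45.7 CPM in PDPN+ and 660.1, 744, 622, 808 and 718 CPM in EpCAM+ libraries (log2 difference -2.66, SE 0.41, adjusted p = 7.69e-04). Neither gene's groups overlapped, and Hbegf had reads in every PDPN+ library. Nrg4, a ligand of ERBB4, was lower as well (-6.19). Btc (-3.65), Egf (-3.14), Ereg (-0.58) and Tgfa (-0.43) had log2 differences that did not pass. Nrg1, which encodes the ERBB3 ligand neuregulin 1, stood at 57.0, 0, 0 and 0.182 CPM in PDPN+ and 0, 0, 0.0569, 0 and 0.0509 CPM in EpCAM+ libraries. The PDPN+ library of mouse N53178 held nearly all of its reads, and it was not tested because too few libraries had reads. Nrg2, Nrg3 and Epgn were not tested either, and reached 0.175, 0.0170 and 0.186 CPM in their highest library.

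Of 12 regulators of ERBB, Errfi1, a feedback inhibitor of EGFR, was lower in PDPN+ cells, at 45.3, 49.5, 55.3 and 37.6 CPM in PDPN+ and 261, 201, 185, 138 and 108 CPM in EpCAM+ libraries (log2 difference -1.93, SE 0.29, adjusted p = 6.31e-04, and adjusted p = 0.0583 by limma voom). Lrig1, another ERBB inhibitor gene, was lower (-3.44, and adjusted p = 0.0758 with mouse as a block, and adjusted p = 0.0503 to 0.0589 without library EpCAM+ N53180, N53184, N53193 or N53194, and adjusted p = 0.608 with transcript-length offsets) and its relative Lrig3 higher (2.15, and adjusted p = 0.0965 with mouse as a block), and 9 of 12 did not pass. Alternatives gave 2 higher and 3 lower with all 19 libraries in 1 fit or without PDPN+ N53194 and 1 higher and 5 lower by limma on log2(TPM + 1). Of 21 ERK output genes 3 were higher, 5 lower and 13 did not pass (median -0.88), while there were 0 higher and 13 lower by limma on log2(TPM + 1) and 2 higher and 3 lower without EpCAM+ N53180 or N53193. The split of this list thus depended on the setting. Dusp6, a phosphatase gene that ERK induces, stood at 80.4, 256, 70.2 and 92.5 CPM in PDPN+ and 335, 323, 321, 286 and 283 CPM in EpCAM+ libraries (log2 difference -1.31, SE 0.38, adjusted p = 0.0221), and the PDPN+ value of mouse N53180 came near the EpCAM+ values without reaching them. Ccnd1, cyclin D1, stood at 26.5, 72.0, 64.9 and 26.8 CPM in PDPN+ and 691, 1002, 955, 715 and 1007 CPM in EpCAM+ libraries (log2 difference -4.20, SE 0.39, adjusted p = 4.90e-05), with wide separation. Plaur (-2.31), Epha2 (-2.16, and adjusted p = 0.0512 to 0.0639 without library EpCAM+ N53180, N53184 or N53193 or PDPN+ N53180 or N53194, and adjusted p = 0.111 by limma voom) and Spry2 (-1.42, and adjusted p = 0.0986 with mouse as a block, and adjusted p = 0.0513 to 0.0655 without library EpCAM+ N53180, N53193 or N53194, and adjusted p = 0.0794 by limma voom) were lower. The immediate early gene Egr1 (1.17, and adjusted p = 0.0676 by limma on log2(TPM + 1)), Ier3 (1.20, and adjusted p = 0.0580 by limma on log2(TPM + 1)) and Spred1 (1.21, and adjusted p = 0.212 with mouse as a block, and adjusted p = 0.0626 to 0.0827 without library EpCAM+ N53178, N53180, N53184 or N53193 or PDPN+ N53180, and adjusted p = 0.323 by limma on log2(TPM + 1), and 0.0611 by limma voom, and 0.0780 with no low-count filter) were higher. Spry4, a feedback inhibitor gene, stood at 15.7, 33.7, 45.7 and 19.6 CPM in PDPN+ and 39.7, 75.9, 48.4, 46.4 and 53.9 CPM in EpCAM+ libraries and did not pass (adjusted p = 0.105).

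Of 20 tested ligand genes 10 were higher in PDPN+ cells, 1 lower and 9 did not pass, and of 20 receptor genes 8 were higher, 4 lower and 8 did not pass. Under the mouse block 7 and 1 ligand genes and 4 and 3 receptor genes were higher and lower. The ligands gave 8 higher and 5 lower by limma on log2(TPM + 1), and the receptors 5 higher and 5 lower by limma on log2(TPM + 1). Igf1, insulin-like growth factor 1, stood at 1388, 777, 625 and 649 CPM in PDPN+ and 1.90, 1.60, 0.493, 0.434 and 4.17 CPM in EpCAM+ libraries (log2 difference 8.96, SE 0.81, adjusted p = 4.21e-05), while its receptor gene Igf1r stood at 15.7, 19.7, 32.0 and 11.6 CPM in PDPN+ and 32.7, 61.9, 48.6, 47.1 and 73.5 CPM in EpCAM+ libraries (log2 difference -1.42, SE 0.39, adjusted p = 0.0184, and adjusted p = 0.113 with mouse as a block, and adjusted p = 0.0507 to 0.0565 without library EpCAM+ N53180 or N53194, and adjusted p = 0.0937 by limma voom). Of 30 ligand and receptor pairs, 4 had the ligand higher and the receptor lower in PDPN+ cells: Igf1 with Igf1r, Gdnf (5.23, and adjusted p = 0.0785 with mouse as a block, and adjusted p = 0.0535 to 0.0893 without library EpCAM+ N53178, N53180, N53184 or N53193 or PDPN+ N53180 or N53184) with Ret (at least 79.9-fold lower), Rspo3 (at least 50.5-fold higher, and adjusted p = 0.0632 with mouse as a block) with Lgr4 (-2.61, and adjusted p = 0.121 with mouse as a block, and adjusted p = 0.0531 to 0.0949 without library EpCAM+ N53178, N53180, N53184, N53193 or N53194 or PDPN+ N53180, and adjusted p = 0.175 by limma voom), and Mdk (7.49) with Sdc1 (-4.25). Ret, the receptor gene of glial cell line-derived neurotrophic factor, had 0 reads in the PDPN+ libraries and 5.94, 3.36, 3.95, 4.63 and 26.0 CPM in EpCAM+ libraries. Rspo3, a Wnt amplifier gene, had 0 reads in the EpCAM+ libraries and 6.26, 0.671, 3.45 and 3.67 CPM in PDPN+ libraries.

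In 1 pair the ligand was lower and the receptor higher in PDPN+ cells. Il1a, which encodes interleukin 1 alpha, stood at 5.93, 0, 15.1 and 1.43 CPM in PDPN+ and 97.4, 66.6, 88.4, 57.9 and 116 CPM in EpCAM+ libraries (log2 difference -3.92, SE 1.24, adjusted p = 0.0332, and adjusted p = 0.0650 with mouse as a block, and adjusted p = 0.0548 to 0.0673 without library EpCAM+ N53178, N53180, N53184, N53193 or N53194 or PDPN+ N53178 or N53194). Il1r1, its receptor gene, stood at 303, 281, 301 and 177 CPM in PDPN+ and 40.4, 103, 57.0, 44.4 and 80.6 CPM in EpCAM+ libraries (log2 difference 2.03, SE 0.32, adjusted p = 8.25e-04). The receptor's groups did not overlap, and the antagonist gene Il1rn was lower in PDPN+ cells (-5.17). In 4 pairs both genes were higher: Fgf7 (7.98) with Fgfr2 (6.51, and adjusted p = 0.180 with mouse as a block), Tgfb1 (2.27, and adjusted p = 0.170 with mouse as a block, and adjusted p = 0.0589 by limma on log2(TPM + 1)) with Tgfbr2 (2.30), Vegfa (2.72, and adjusted p = 0.0648 with mouse as a block) with Kdr (7.05), and Wnt5a (7.06) with Ror2 (4.39, and adjusted p = 0.0980 with mouse as a block). Efna1 (-2.28) and Epha2 (-2.16, and adjusted p = 0.0512 to 0.0639 without library EpCAM+ N53180, N53184 or N53193 or PDPN+ N53180 or N53194, and adjusted p = 0.111 by limma voom) were both lower. For the platelet-derived growth factors only the receptor genes Pdgfra (8.47) and Pdgfrb (8.67) passed. Hgf, the ligand of MET, was higher in PDPN+ cells (6.88, and adjusted p = 0.188 with mouse as a block), at 0.293, 15.4, 23.9 and 1.82 CPM, with Met at 12.4, 39.6, 15.2 and 47.9 CPM in PDPN+ and 64.5, 51.3, 54.7, 61.2 and 47.2 CPM in EpCAM+ libraries (adjusted p = 0.118). Axl, a receptor kinase gene, was higher (2.88, and adjusted p = 0.0594 with mouse as a block), while Gas6, its ligand gene, had an adjusted p of 0.0569. Kitl (-1.13, and adjusted p = 0.0600 by limma voom) was lower. For Osm with Osmr (3.70) and Fgf10 with Fgfr2 the receptor gene was higher and the ligand was not tested. Spp1 was lower, while Cd44, which encodes a receptor of osteopontin, had an adjusted p of 0.0745. Cxcl12, a stromal chemokine gene, was higher (8.44), and its receptor gene Ackr3 had an adjusted p of 0.0725. In 2 pairs, Tgfa with Egfr among them, neither gene passed.

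**Figure D4:**
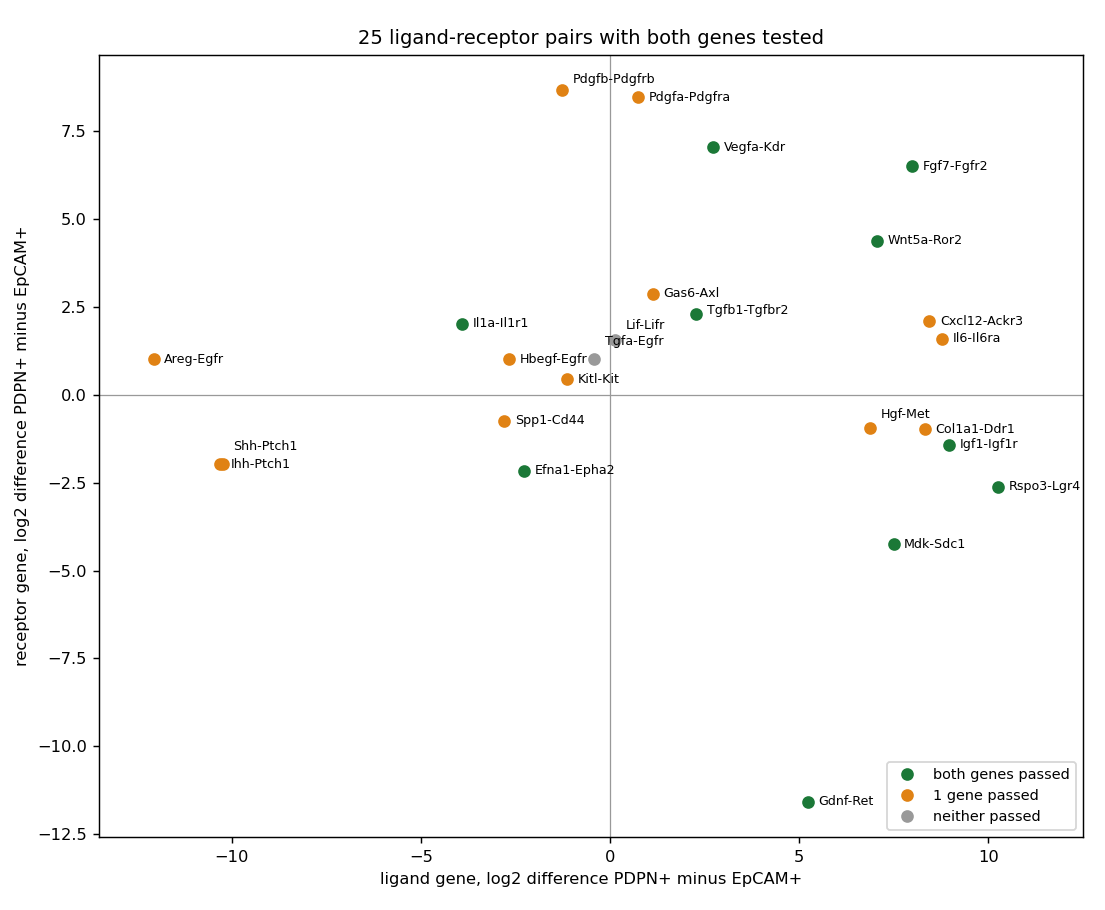
Log2 difference (PDPN+ minus EpCAM+) of the ligand gene (horizontal) and of the receptor gene (vertical) for the 25 pairs with both genes tested, coloured by how many of the 2 genes passed. The lower right corner holds the 4 pairs in which both genes passed, the ligand higher and the receptor lower in PDPN+ cells. Ret and Rspo3 had 0 reads in a whole population, so their plotted values depend on the prior count.

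Hedgehog ligand genes and receptor component genes went opposite ways. The ligand genes Shh, Ihh and Dhh had 0 reads in all 4 PDPN+ libraries. Shh stood at 2.55, 6.97, 3.57, 1.78 and 2.48 CPM and Ihh at 2.23, 3.48, 3.26, 5.70 and 3.70 CPM in EpCAM+ libraries. Shh was at least 31.6-fold lower, and adjusted p = 0.0632 with mouse as a block in PDPN+ cells, and Ihh at least 33.5-fold lower, and adjusted p = 0.0632 with mouse as a block. The receptor component genes Smo (2.67, and adjusted p = 0.0647 with mouse as a block), Gas1 (9.20), Boc (8.18) and Cdon (2.35, and adjusted p = 0.168 with mouse as a block, and adjusted p = 0.117 by limma on log2(TPM + 1)) and the effector gene Gli3 (4.87) were higher in PDPN+ cells. Gas1 stood at 76.4, 98.5, 104 and 92.6 CPM in PDPN+ and 0.371, 0.0539, 0.0190, 0.0826 and 0.254 CPM in EpCAM+ libraries (log2 difference 9.20, SE 0.83, adjusted p = 4.16e-05). Gli1, the response gene of the pathway, stood at 0.256, 0.438, 23.0 and 1.21 CPM in PDPN+ libraries, high in mouse N53184 alone, and was not tested. Over the list there were 6 higher, 5 lower and 1 not passing, and 3 higher and 0 lower with mouse as a block.

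Wnt pathway genes gave 13 higher, 3 lower and 2 not passing among 18 tested, and 8 higher and 1 lower with mouse as a block. Wnt7b and Wnt10a, Wnt ligand genes of epithelia, had 0 reads in the PDPN+ libraries, and Wnt7b stood at 19.8, 29.7, 28.4, 19.1 and 35.3 CPM in EpCAM+ libraries (at least 241-fold lower in PDPN+ cells). Wnt2 (9.98), Wnt4 (4.38) and the antagonist genes Sfrp1 (9.70), Sfrp2 (8.65) and Dkk3 (8.40) were higher in PDPN+ cells. Wnt4 stood at 368, 238, 369.9 and 273 CPM in PDPN+ and 27.6, 19.6, 5.90, 7.35 and 14.7 CPM in EpCAM+ libraries (log2 difference 4.38, SE 0.48, adjusted p = 1.24e-04). TGF-beta pathway genes gave 9 higher, 1 lower and 4 not passing among 14 tested, and 5 higher and 0 lower with mouse as a block. Tgfbr3 (7.13), Tgfb2 (4.57), Tgfb3 (1.76, and adjusted p = 0.0721 with mouse as a block) and Tgfbi (3.84) were higher, and Skil, which encodes a repressor of the pathway, lower (-0.94, and adjusted p = 0.0653 with mouse as a block, and adjusted p = 0.0555 to 0.0780 without library EpCAM+ N53178, N53180 or N53194 or PDPN+ N53178, N53184 or N53194, and adjusted p = 0.0987 by limma voom, and 0.109 with transcript-length offsets).

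Most interferon response and MHC class I genes were higher in PDPN+ cells, and cytokine genes went both ways. Among 12 cytokine and cytokine receptor genes there were 5 higher, 2 lower and 5 not passing. Osmr, the oncostatin M receptor gene, stood at 315, 443, 388 and 195 CPM in PDPN+ and 6.89, 8.42, 42.3, 62.4 and 9.07 CPM in EpCAM+ libraries (log2 difference 3.70, SE 0.72, adjusted p = 0.00284), and Il11ra1 at 917, 537, 515 and 412 CPM in PDPN+ and 14.8, 24.6, 29.1, 22.5 and 21.7 CPM in EpCAM+ libraries (log2 difference 4.72, SE 0.31, adjusted p = 6.64e-06). Il6st, the shared signal chain gene (1.72, and adjusted p = 0.0608 by limma on log2(TPM + 1)), and Tnfrsf1a (1.93) followed. Among 15 interferon response genes there were 12 higher and 3 not passing (median 2.25), and 5 were higher with mouse as a block. Ifi27 stood at 235, 187, 265 and 271 CPM in PDPN+ and 50.6, 27.0, 106, 19.5 and 40.5 CPM in EpCAM+ libraries (log2 difference 2.30, SE 0.45, adjusted p = 0.00294). Isg15 (2.64), Bst2 (1.80), Irf7 (1.88) and Xaf1 (2.31) were higher as well. Among 9 MHC class I genes there were 6 higher and 3 not passing, and 3 were higher with mouse as a block. B2m, the light chain gene, stood at 1051, 1823, 2084 and 1919 CPM in PDPN+ and 401, 179.8, 477, 199 and 222 CPM in EpCAM+ libraries (log2 difference 2.54, SE 0.35, adjusted p = 4.64e-04), and H2-K1 and Psmb8 had log2 differences of 1.93 and 4.80.

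Metabolic genes that passed were lower in PDPN+ cells. Of 17 cholesterol synthesis genes 7 were lower and 10 did not pass (median -1.80), with 4 lower under the mouse block. Other settings gave 0 higher and 11 lower by DESeq2 or without PDPN+ N53184, 0 higher and 15 lower by limma on log2(TPM + 1) and 0 higher and 4 lower without EpCAM+ N53180, N53193 or N53194. Msmo1, a sterol oxidase gene, stood at 55.1, 44.8, 30.6 and 53.8 CPM in PDPN+ and 278, 217, 306, 309 and 305 CPM in EpCAM+ libraries (log2 difference -2.62, SE 0.24, adjusted p = 4.05e-05). Fdps (-1.80), Sqle (-2.99) and Fdft1 (-2.26, and adjusted p = 0.0536 with mouse as a block) were lower. Of 17 glycolysis genes 7 were lower and 10 did not pass (median -0.61), with 0 higher and 4 lower by limma voom or without EpCAM+ N53193 or N53194. Pkm, pyruvate kinase, stood at 936, 1660.2, 1857 and 1482 CPM in PDPN+ and 2680.2, 3324, 4099, 4211 and 4383 CPM in EpCAM+ libraries (log2 difference -1.33, SE 0.23, adjusted p = 0.00142), and Pfkl and Pgam1 had log2 differences of -1.72 and -1.05. The most abundant genes that were higher in PDPN+ cells were mitochondrially encoded. The cytochrome b gene mt-Cytb stood at 48146, 32631, 41618 and 27951 CPM in PDPN+ and 4363, 3506, 3671, 3618 and 4314 CPM in EpCAM+ libraries (log2 difference 3.27, SE 0.18, adjusted p = 3.29e-06), and mt-Atp6, mt-Co2 and mt-Co3 had log2 differences of 3.00, 3.16 and 2.69. Mitochondrial reads can also match nuclear copies such as Gm29216 (2.73), so these values are uncertain.

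Of 18 tested proliferation genes 1 was higher and 17 did not pass (median -0.27). The call rested on the setting, with 1 higher and 1 lower by DESeq2, 1 higher and 6 lower by limma on log2(TPM + 1), 0 higher and 0 lower without EpCAM+ N53180, N53184, N53193 or N53194, 2 higher and 0 lower without PDPN+ N53180 and 1 higher and 5 lower without PDPN+ N53194. Mki67, the proliferation antigen gene, stood at 37.8, 13.8, 98.1 and 139 CPM in PDPN+ and 48.5, 40.6, 44.0, 49.4 and 43.3 CPM in EpCAM+ libraries (adjusted p = 0.379). The PDPN+ values of mice N53184 and N53194 lay above, and those of mice N53178 and N53180 below, all EpCAM+ values. Ccne1, cyclin E1, was the higher gene (2.76, and adjusted p = 0.156 with mouse as a block, and adjusted p = 0.0540 to 0.0574 without library EpCAM+ N53180, N53184, N53193 or N53194). Among tumour suppressor genes, Trp53, which encodes p53, stood at 124, 161, 78.5 and 86.3 CPM in PDPN+ and 130.4, 144, 129, 111 and 121 CPM in EpCAM+ libraries and did not pass (adjusted p = 0.636). Gene totals do not show which Trp53 alleles the reads came from. Cdkn2a stood at 3.44, 0, 0.0269 and 1.09 CPM in PDPN+ and 15.7, 29.9, 48.0, 55.3 and 33.1 CPM in EpCAM+ libraries (log2 difference -5.00, SE 1.45, adjusted p = 0.0228, and adjusted p = 0.0842 with mouse as a block, and adjusted p = 0.0505 to 0.0538 without library EpCAM+ N53184 or N53193). Of 16 p53 targets 4 were higher, Aen (1.40, and adjusted p = 0.0963 with mouse as a block), Ccng1 (0.83, and adjusted p = 0.134 with mouse as a block, and adjusted p = 0.0504 to 0.0733 without library EpCAM+ N53180, N53184, N53193 or N53194 or PDPN+ N53184 or N53194, and adjusted p = 0.676 by limma on log2(TPM + 1), and 0.0719 with no low-count filter), Eda2r (6.18, and adjusted p = 0.204 with mouse as a block) and Fas (3.29), and Perp was lower (-4.80, and adjusted p = 0.0826 with mouse as a block, and adjusted p = 0.0524 to 0.0753 without library EpCAM+ N53178, N53180, N53184, N53193 or N53194 or PDPN+ N53180, and adjusted p = 0.0651 by limma voom). With mouse as a block 1 of the 16, Fas, was higher. The 16 gave 2 higher and 1 lower by limma on log2(TPM + 1) and 3 higher and 0 lower without EpCAM+ N53180, N53184, N53193 or N53194.

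Genes that handle drugs differed in both directions. Among 14 tested there were 6 higher, 4 lower and 4 not passing. Cyp3a13, a cytochrome P450 gene of the family that oxidises many drugs, stood at 0, 0, 0 and 0.0304 CPM in PDPN+ and 173, 439, 92.6, 461 and 280.1 CPM in EpCAM+ libraries (log2 difference -14.75, SE 0.97, adjusted p = 7.18e-06). Gsta4, a glutathione transferase gene, stood at 22.9, 29.1, 17.9 and 37.9 CPM in PDPN+ and 908, 1130.2, 727, 1038 and 632 CPM in EpCAM+ libraries (log2 difference -5.04, SE 0.32, adjusted p = 5.86e-06). Abcc3 was lower (-5.44, and adjusted p = 0.120 by limma voom) and Aldh3a1 had 0 reads in the PDPN+ libraries (at least 12.7-fold lower, and adjusted p = 0.0632 with mouse as a block). The efflux pump genes Abcb1b and Abcg2 were higher in PDPN+ cells, while the efflux pump gene Abcb1a went the other way in TPM. Abcb1a stood at 0.139, 8.96, 5.59 and 9.49 TPM in PDPN+ and 33.2, 35.0, 23.3, 66.2 and 110 TPM in EpCAM+ libraries. It was not among the 4 lower genes that passed. Abcb1b stood at 76.5, 56.3, 181 and 124 CPM in PDPN+ and 10.2, 12.5, 13.8, 12.3 and 24.6 CPM in EpCAM+ libraries (log2 difference 2.90, SE 0.42, adjusted p = 5.70e-04), and Abcg2 at 21.7, 47.3, 12.6 and 48.1 CPM in PDPN+ and 2.50, 0.916, 1.06, 1.28 and 1.36 CPM in EpCAM+ libraries (log2 difference 4.51, SE 0.60, adjusted p = 3.83e-04). Ugt1a6a (1.94) and Ugt1a7c (1.18, and adjusted p = 0.204 by limma on log2(TPM + 1), and 0.0872 by limma voom), which share exons and may share reads, were higher too, as were Aldh1a1 (3.61) and Gstm1 (1.52).

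Dissociation stress genes, which tissue digestion can induce, gave 5 higher and 0 lower among 14 tested (median 0.64), and 3 higher and 3 lower by limma on log2(TPM + 1). Jund (3.28), Hspa1a (2.20), Nr4a1 (1.69), Zfp36 (1.01, and adjusted p = 0.283 by limma on log2(TPM + 1)) and Dnajb1 (0.74, and adjusted p = 0.0627 with mouse as a block, and adjusted p = 0.0584 to 0.112 without library EpCAM+ N53178, N53180, N53193 or N53194 or PDPN+ N53180 or N53184, and adjusted p = 0.607 by limma on log2(TPM + 1), and 0.170 by limma voom, and 0.0904 with no low-count filter, and 0.0587 with transcript-length offsets) were higher in PDPN+ cells. The list shares immediate early genes with ERK output, and its part in Egr1 and Ier3 was not tested.

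To examine whether the population difference under neratinib departs from that under vehicle, the 4 PDPN+ and 6 EpCAM+ vehicle libraries were added. In a separate fit of the vehicle libraries 5421 of 17601 genes passed, and 3660 were called in both treatments (62.7% of the neratinib and 67.5% of the vehicle calls), 3656 of them with the same direction. Across 16440 genes Pearson's r between the log2 differences of the 2 treatments was 0.845 and Spearman's rho 0.774, over libraries that the treatments do not share. The difference between treatments passed for 13 of 19626 genes (0.0662%), 1 with a positive and 12 with a negative value, and for 0 members of the gene lists. Without a block 2190 genes had an unadjusted p under 0.05, against 981 expected by chance. With mouse as a block 0 of 19078 genes passed in edgeR's test and 347 had an unadjusted p under 0.05. That is fewer than chance alone would give, so the block fit was conservative and its 0 cannot decide on the 13 genes.

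In most genes with a negative value, PDPN+ cells had reads under vehicle and few or none under neratinib. Vehicle libraries are given in the order of mice V53175, V53179, V53185 and V53188 for PDPN+ cells and V53175, V53176, V53179, V53185, V53188 and V53192 for EpCAM+ cells. Fitted values of genes with 0 reads in a group depend on the prior count and are no bounds. Trmt61b, an RNA methyltransferase gene, had 0 reads in the 4 PDPN+ neratinib libraries and 14.6, 2.09, 3.63 and 8.99 CPM in the PDPN+ vehicle libraries, while EpCAM+ libraries held 8.53, 5.77, 7.27, 6.50 and 5.56 CPM under neratinib (log2 -11.27, SE 1.15, adjusted p = 8.81e-04). Dapk2, a death-associated kinase gene, had 0 reads under neratinib and 25.4, 2.11, 1.92 and 26.3 CPM under vehicle (log2 -11.95, SE 1.72, adjusted p = 0.0105). Car2, the carbonic anhydrase gene of ducts, stood at 0, 0, 0 and 0.210 CPM under neratinib and 0.852, 1.40, 4.61 and 22.6 under vehicle in PDPN+ cells, and at 1703, 2013, 1852, 2664 and 2137 CPM under neratinib and 1067, 1326, 1255, 994, 1348 and 856 under vehicle in EpCAM+ cells (log2 -7.90, SE 1.23, adjusted p = 0.0105). For Car2 the PDPN+ libraries of the treatments did not overlap, nor did the EpCAM+ libraries. Plekhb1 (-8.89), Gm15533 (-9.98) and Lin9 (-5.87) were among the others. Large2, a glycosyltransferase gene that acts on dystroglycan, was the positive one, at 9.47, 7.14, 3.40 and 14.0 CPM under neratinib and 0, 0.133, 0.0369 and 0 under vehicle in PDPN+ cells (log2 7.24, SE 0.99, adjusted p = 0.00352). In PDPN+ cells 7 genes had 0 reads in all neratinib and at least 10 reads in all vehicle libraries, 1 the reverse, and in EpCAM+ cells 0 and 0 did. Genes with at least 10 reads numbered 13691 to 14682 in PDPN+ neratinib and 11924 to 18602 in PDPN+ vehicle libraries. The uneven detection described above was measured in neratinib libraries only, and its part in these genes was not tested. The count of genes that passed for the difference between treatments was 127 without PDPN+ vehicle library V53175 and 131 without V53188. Without the PDPN+ neratinib library N53194 it was 59. Without the PDPN+ neratinib libraries N53178 and N53184 it was 28 and 21, and without the PDPN+ vehicle library V53185 it was 23.

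**Figure D5:**
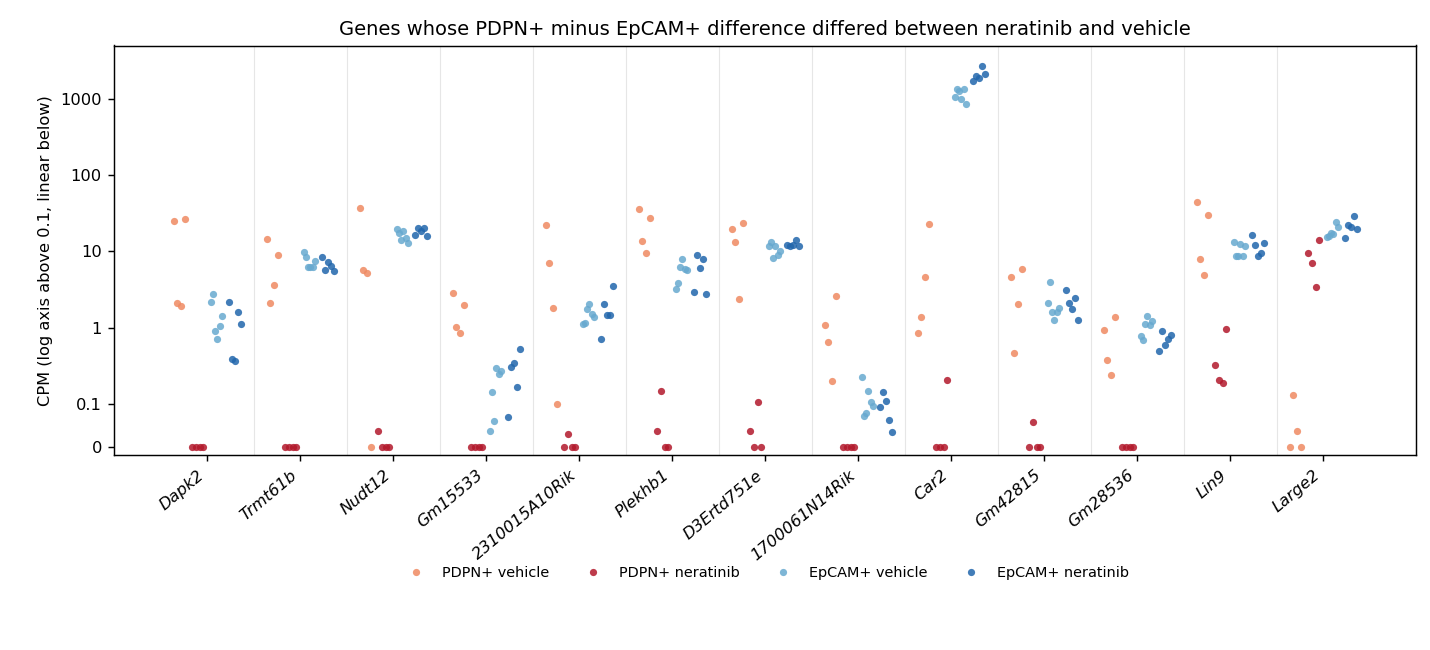
CPM of the 13 genes that passed the test of the difference between treatments, in the 19 libraries of both treatments (points, coloured by population and treatment), on an axis that is logarithmic above 0.1 and linear below. In 12 genes the PDPN+ neratinib points lie at or near 0 and the PDPN+ vehicle points mostly above them; Large2 shows the reverse.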

How the data were processed

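RNA of FACS-sorted cells was sequenced after low-input amplification, and the authors deposited Salmon 1.9.0 output per library, with estimated (expected) counts and TPM per transcript, on the mouse build GRCm39 (mm39), per the submitters' processing notes. Neither more of the alignment settings nor the annotation is given in the sources used here. Transcripts were assigned to genes and gene names with GENCODE M21, and the estimated counts were summed per gene and rounded, while TPM were summed as deposited. Of 147828 transcripts listed, 137063 matched. The 10765 others were left out of the gene totals. They held 4.07 to 8.96% of the reads in PDPN+ and 1.77 to 2.18% in EpCAM+ neratinib libraries. The populations were compared with edgeR 4.0.16 (quasi-likelihood test, TMM, filterByExpr) in R 4.3.3, adjusted by Benjamini-Hochberg over all genes tested, with limma 3.58.1 and DESeq2 1.42.0 as alternatives. The difference between treatments was an interaction term over all 19 libraries. The fits were tested on simulated data. CPM were scaled to the TMM-adjusted library size and computed from the deposited estimated counts. Depth was 30.3 to 54.8 M gene reads, so that 3 reads stand for at most 0.110 CPM, which covers counting error only.

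The mouse numbers in the titles, read as animals, pair the populations. The correlation of the paired libraries' deviations from their group means was -0.034, 0.008, 0.004 and -0.206 for mice N53178, N53180, N53184 and N53194. The gene lists, the ligand and receptor pairs and the rule for named genes were chosen with earlier results of these data known. The rule takes, in each direction, the 8 largest and the 8 most abundant passing genes, all ERBB and tumour suppressor genes and all pairs, up to 5 passing members per list and direction, and up to 4 genes per direction for the difference between treatments. Named beyond the rule, after their values were seen, were Abcb1a, Abcg2, Ccl21a, Cdh1, Cdh5, Cldn3, Cldn7, Col12a1, Elf3, Emcn, Esrp1, Fn1, Foxa1, Gli1, Grhl2, H2-Aa, Krt7, Lama1, Lama2, Lyz2, Msln, Notch3, Ocln, Onecut2, Prom1, Prox1, Prrx1, Ptprc, Rgs5, Snai1, Snai2, Spint1, Tagln, Tff1, Tgfb2, Tgfbr3, Twist1 and Xaf1. Dapk2, Car2 and Lin9 were named likewise for the difference between treatments. Alternatives were another scaling, tool, filter, length offset, unit and spread, mitochondrial genes removed, the mouse block and each library left out. Some list members are not reported here and were left out of the list counts. Promoter windows are from RefSeq GRCm38.p6.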

Additional observations from a re-analysis of the deposited data

Results flagged for a closer look

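Erbb3 in PDPN+ libraries was marked because 1 of 4 values lay far from the rest, 9.70 CPM in mouse N53184. This was the single such case among 36 groups of library values and measures tested with Dixon's criterion on log2(CPM + 0.5), and chance marks about 1 in 20 groups.

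For 7 named genes the PDPN+ minus EpCAM+ difference itself differed between neratinib and vehicle (edgeR interaction term): Trmt61b -11.27, Gm15533 -9.98, Plekhb1 -8.89, Dapk2 -11.95, Car2 -7.90, Lin9 -5.87 and Large2 7.24 on the log2 scale. None of these 7 passed with mouse as a block, a fit that gave fewer small p-values than chance would.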

How the results depend on the processing

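The count of genes that differed between the populations was 5838. It was 9488 by DESeq2, 2353 with mouse as a replicate block over 4 mice, and 4402 to 7122 with each library left out. Over the same 8 libraries without the block, an alternative chosen after seeing the data, it was 4402. With transcripts that matched no gene tested as features, also chosen after seeing the data, it was 6330, and the other alternatives gave 5832 to 7627. The count for the difference between treatments was 13. It was 687 by DESeq2, 4 by limma voom, 0 with the replicate block over 8 mice, and 9 to 131 with each library left out. Of the 243 named genes that passed, 175 passed under every alternative that tested them and 0 changed direction. The block ended 53 calls, limma voom 25, limma on log2(TPM + 1) 12, a left-out library 4 to 18 and each other alternative at most 4, apart from the 18 of the same 8 libraries without the block. The cause was not tested. Among genes that did not pass, Egfr turned to -0.21 (limma on log2(TPM + 1)), Mki67 turned to -0.30 (limma on log2(TPM + 1)) and Prox1 turned to -1.71 (limma voom with sample weights), -1.96 (mouse as a block), -1.96 to 3.68 (each library left out). Depth bounds genes at 0 reads for counting error only. Uneven detection in PDPN+ libraries limits these genes as well as the rest, and with 4 and 5 animals small differences may be missed.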
